A study of Mus musculus with 58 samples.

Results

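Gene expression in the retinas of wild-type control mice was compared between late night and late day. The 4 control libraries collected at ZT21 were set against the 5 control libraries collected at ZT9, zeitgeber time being counted in hours from lights on. These 9 libraries, chosen by genotype and time point alone, are part of 58 libraries of single mouse retinas, in which 2 genotypes were sampled at 6 time points. Total RNA was depleted of ribosomal RNA and sequenced, and the values are read counts per gene. The control mice were male wild-type littermates, labelled C57/BL/6, of the diabetic mice in the series, and all mice were 4 months old. They were kept in 12 h of light and 12 h of darkness, so retinas were exposed to light at ZT9, and had been in darkness with collection under dim red light at ZT21. The time of the clock and the lighting cannot be told apart in this design. Mice were perfused with cold saline before the retina was dissected. The diabetic retinas used for comparison came from heterozygous Ins2Akita males, in which misfolded insulin destroys the beta cells of the pancreas, with 5 libraries at each of the 2 times.

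The retina holds its own circadian clock, in which transcription factors of the Clock and Arntl pair drive genes whose products, among them the Per and Cry proteins, feed back to repress them. Through dopamine by day and melatonin by night, and through light itself, this timing reaches the photoreceptors and the neurons that follow them. Photoreceptors are depolarized in darkness, when open channels let a steady current of ions in. Pumping these ions out again, and releasing transmitter at the ribbon synapse, costs energy, much of which photoreceptors obtain by aerobic glycolysis.

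The counted reads ranged from 10596639 to 19003584 in the ZT9 libraries and from 11492481 to 18575885 in the ZT21 libraries. Every pair of libraries within a group differed by more than sampling noise, with a chi-square of at least 2.88 per degree of freedom, so none was taken for a repeat deposit of another library. The libraries were from retina by their markers: summed over 11 rod genes, CPM values (counts scaled to a common effective library size) ranged from 42260.0 to 53430.0 at ZT9 and from 46030.0 to 55920.0 at ZT21. Of 15 lists of cell type markers, 0 differed in their sum at an adjusted p and 3 at an unadjusted p under 0.05 in an exact two-sided permutation test over the 9 libraries, where the smallest unadjusted p is 0.00794. These 3 were the sums of astrocytes (unadjusted p = 0.00794), bipolar cells (0.0159) and retinal pigment epithelium (0.0238), each with an adjusted p of 0.119. Replicate 2 at ZT21 held RNA of the lens: its 16 lens genes summed to 2603 CPM, while the ZT9 libraries had at most 10.5 and the median of the ZT21 libraries was 8.15. The 3 crystallin genes called higher at ZT21, Cryaa, Crybb1 and Crybb3, rest on this library and are given no further weight. Replicate 4 of each time stood apart from its group in how counts deviated with the GC content of the transcript, with a Spearman correlation over 12639 genes of 0.774 at ZT9 and 0.497 at ZT21, where the other libraries had values between -0.555 and 0.0903. The difference between the times had a correlation with GC content of 0.103.

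Of the 19120 genes with a median above 4 normalized counts, 229 were higher and 216 were lower at ZT21 than at ZT9 at an adjusted p under 0.05. That is 1.2% and 1.13% of the genes tested, or 2.33% in either direction, and 13.7% had an unadjusted p under 0.05. These shares are the background for the counts of every gene list given here. Counts were tested with edgeR's quasi-likelihood test, in which the spread between replicates is shared over the 12 groups of the series, and p-values were adjusted by the Benjamini-Hochberg method. Most changes were modest. The median log2 fold change was 0.39 among the genes higher at ZT21, which is 1.31-fold, and -0.48 among the lower ones, against -0.011 over all genes tested. Of the higher genes 18, and of the lower genes 36, changed by more than 1 on the log2 scale. In CPM, all 4 ZT21 libraries lay above all 5 ZT9 libraries for 184 of the 229 higher genes and below them for 171 of the 216 lower genes. Over all genes tested, the groups did not overlap in these 2 directions for 2.89% and 2.93%, 5.82% in all. The even split between directions rests on the scaling. With library totals in place of TMM factors, 147 genes were higher and 447 lower, and the median of all genes shifted to -0.072. Counts of calls also fell to 67 and 39 when the 9 libraries were fitted alone, where 36 of the 72 called genes named here lost their call, to 107 and 87 without replicate 3 at ZT21, and to 122 and 107 without replicate 4 at ZT21. Without replicate 3 at ZT9 they were 138 and 155. They came to 157 and 137 with no filter on low counts, and to 479 and 383 once the trend with GC content had been removed from each library, an alternative chosen after the data were seen.

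**Figure D1:**
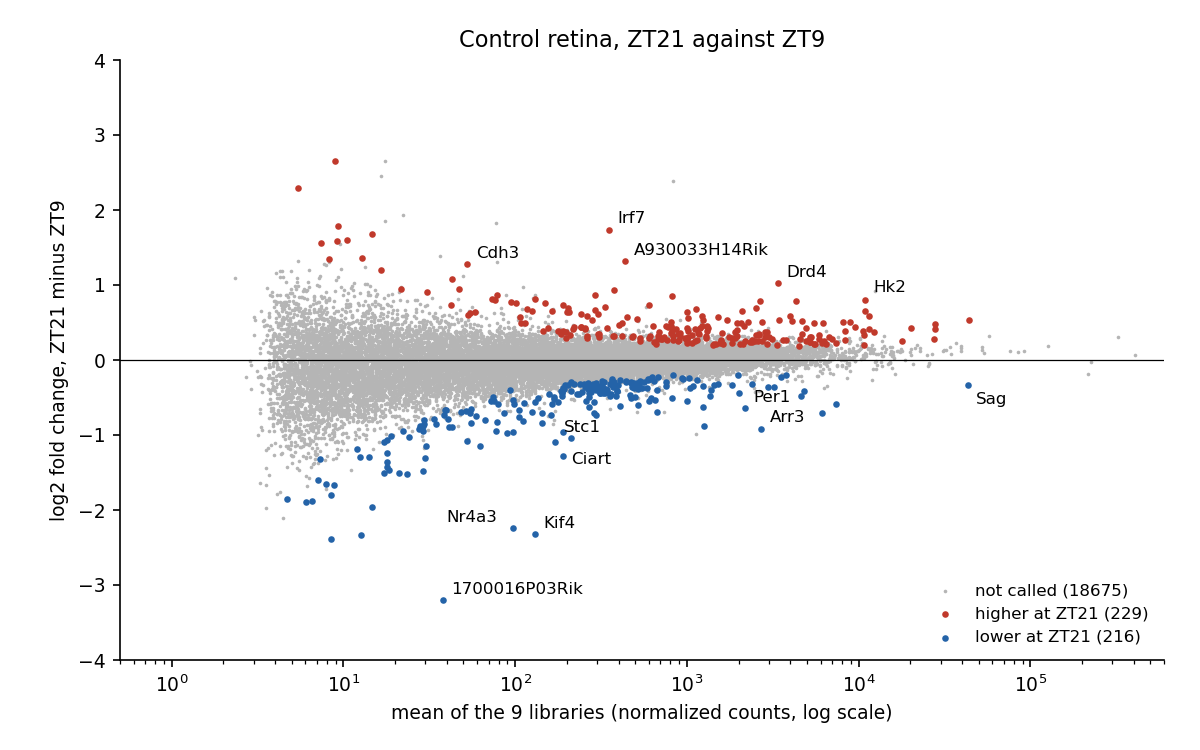
Each point is a gene, with its mean over the 9 control libraries in normalized counts on a log axis and its log2 fold change at ZT21 against ZT9 on the other axis. The 229 genes called higher are red, the 216 called lower are blue and the 18675 others grey. The 3 lens crystallins lie above the axis limit of 4. Called genes with large mean counts, such as Hk2 and Sag, had changes under 1 on the log2 scale, and the largest decrease was that of 1700016P03Rik.

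The gene with the largest decrease among those that met the naming rule was a non-coding RNA, 1700016P03Rik. Its gene lies on chromosome 11 from 75172560 to 75177633 on the plus strand (Gencode M21, GRCm38), and the hairpins of 2 microRNAs lie inside it on the same strand. Mir212 spans 75173388 to 75173478 and Mir132 spans 75173682 to 75173747. These microRNAs are known to be induced by neuronal activity through cyclic AMP signalling. Their mature sequences from RefSeq (GRCm38.p6) are shown because the 3p strands share a seed, bases 2 to 8, which is in capitals and selects the messages a microRNA binds.
mmu-miR-212-3p: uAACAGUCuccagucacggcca
mmu-miR-132-3p: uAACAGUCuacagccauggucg
mmu-miR-212-5p: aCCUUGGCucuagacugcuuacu
mmu-miR-132-5p: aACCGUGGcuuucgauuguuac

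The 2 seeds of the 3p strands are identical, while those of the 5p strands differ. The host RNA had 71, 65.1, 63.5, 56.6 and 57.3 at ZT9 and 9.62, 8.83, 6.42 and 3.4 at ZT21 in normalized counts, libraries being given in the order of their replicate numbers throughout. All ZT21 libraries were far below all ZT9 libraries (log2 fold change -3.20, SE 0.38, adjusted p = 5.85e-08). The Mir212 locus, which was named after its values were seen, had 13.7, 10.6, 9.52, 20.7 and 12.4 at ZT9 and 2.41, 0, 4.01 and 2.55 at ZT21. It was lower at ZT21 as well (log2 fold change -2.38, SE 0.47, adjusted p = 0.00132). The libraries were of total RNA and not of small RNA, and mature microRNAs were not measured. The gene Ovca2 overlaps the host RNA on the opposite strand and had a log2 fold change of 0.00061 (adjusted p = 0.999).

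Kif4, a kinesin motor of chromosomes and the mitotic spindle, had the smallest p-value of all genes. Normalized counts of Kif4 were 238, 177, 276, 178 and 139 at ZT9 and 46.9, 46.7, 32.1 and 38.2 at ZT21. The mean was 202 ± 54.6 (SD, n = 5) at ZT9 and 41 ± 7.16 (SD, n = 4) at ZT21, and the groups were far apart (log2 fold change -2.32, SE 0.22, adjusted p = 1.05e-10). Kif4 lies on chromosome X from 100625737 to 100727214 on the plus strand, 7243 bases downstream of Arr3 on the same strand. Arr3 encodes cone arrestin, which shuts off activated cone opsins. Its counts were 3429.9, 3610.1, 4001, 3150.0 and 2934 at ZT9 and 2265, 1868, 1669 and 1506 at ZT21. The groups did not overlap and the decrease was -0.91 (SE 0.10, adjusted p = 3.76e-08) on the log2 scale. Stc1, a secreted glycoprotein hormone known for a role in calcium and phosphate balance, had 176, 165, 215, 257 and 309 at ZT9 and 103, 117, 102 and 101 at ZT21. Its ZT21 libraries lay close together and below those at ZT9 (log2 fold change -1.10, SE 0.17, adjusted p = 5.34e-05). Spry4, an inhibitor of growth factor signalling that also dampens the MAP kinase cascade, ranged from 209.7 to 313 at ZT9 and 87.5 to 203 at ZT21 (log2 fold change -1.04, SE 0.28, adjusted p = 0.0316). Adprhl1, of the ADP-ribosylhydrolase family, had 61.1 to 74.4 at ZT9 and 24.1 to 45.4 at ZT21 (log2 fold change -0.84, SE 0.19, adjusted p = 0.00547). The 2 groups did not overlap for either gene, but Spry4 lost its call without any of replicates 3, 4 and 5 at ZT9 or replicates 3 and 4 at ZT21, and Adprhl1 without replicate 3 at ZT21.

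Among the genes higher at ZT21, Irf7 had the largest change of those named for separate groups and a mean of at least 50 normalized counts. It encodes a transcription factor of the type I interferon response. Its normalized counts were 187, 155, 164, 190.4 and 165 at ZT9 and 497, 400.0, 711 and 688 at ZT21. The night libraries were all far above the day libraries (log2 fold change 1.74, SE 0.19, adjusted p = 2.29e-08). A930033H14Rik, a transcript that lies within the span of Rhobtb1 on the opposite strand, had 315, 352, 224, 181 and 238 at ZT9 and 711, 647, 624 and 652 at ZT21. Its groups were separate (log2 fold change 1.32, SE 0.15, adjusted p = 5.19e-08), and Rhobtb1, named after its values were seen, was higher too (log2 fold change 0.61, SE 0.16, adjusted p = 0.022). Zdhhc5, an enzyme that attaches palmitate to proteins at the membrane, had the smallest p-value among the higher genes. Its counts were 2994, 3303, 2763, 3539 and 3647 at ZT9 and 5011, 4952, 6096 and 6450.3 at ZT21, again without overlap (log2 fold change 0.79, SE 0.082, adjusted p = 3.8e-09). Sik2, a kinase that holds back transcription driven by CREB, had 1857, 1972, 2094, 2064 and 2124 at ZT9 and 2989, 2984, 4364 and 3603 at ZT21 (log2 fold change 0.78, SE 0.10, adjusted p = 4.79e-07). Pde8b, a phosphodiesterase that degrades cyclic AMP, had 1769, 1881, 1898, 2001 and 1934 at ZT9 and 2693, 2653, 2793 and 2724 at ZT21 (log2 fold change 0.51, SE 0.062, adjusted p = 1.14e-07). Both genes were higher in each night library than in each day library. Thbs1, a secreted inhibitor of angiogenesis, ranged from 186 to 244 at ZT9 and 333 to 479 at ZT21 (log2 fold change 0.87, SE 0.25, adjusted p = 0.0447), and lost its call without any 1 of 7 libraries, replicates 1, 3 and 4 of either time and replicate 2 at ZT9.

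**Figure D2:**
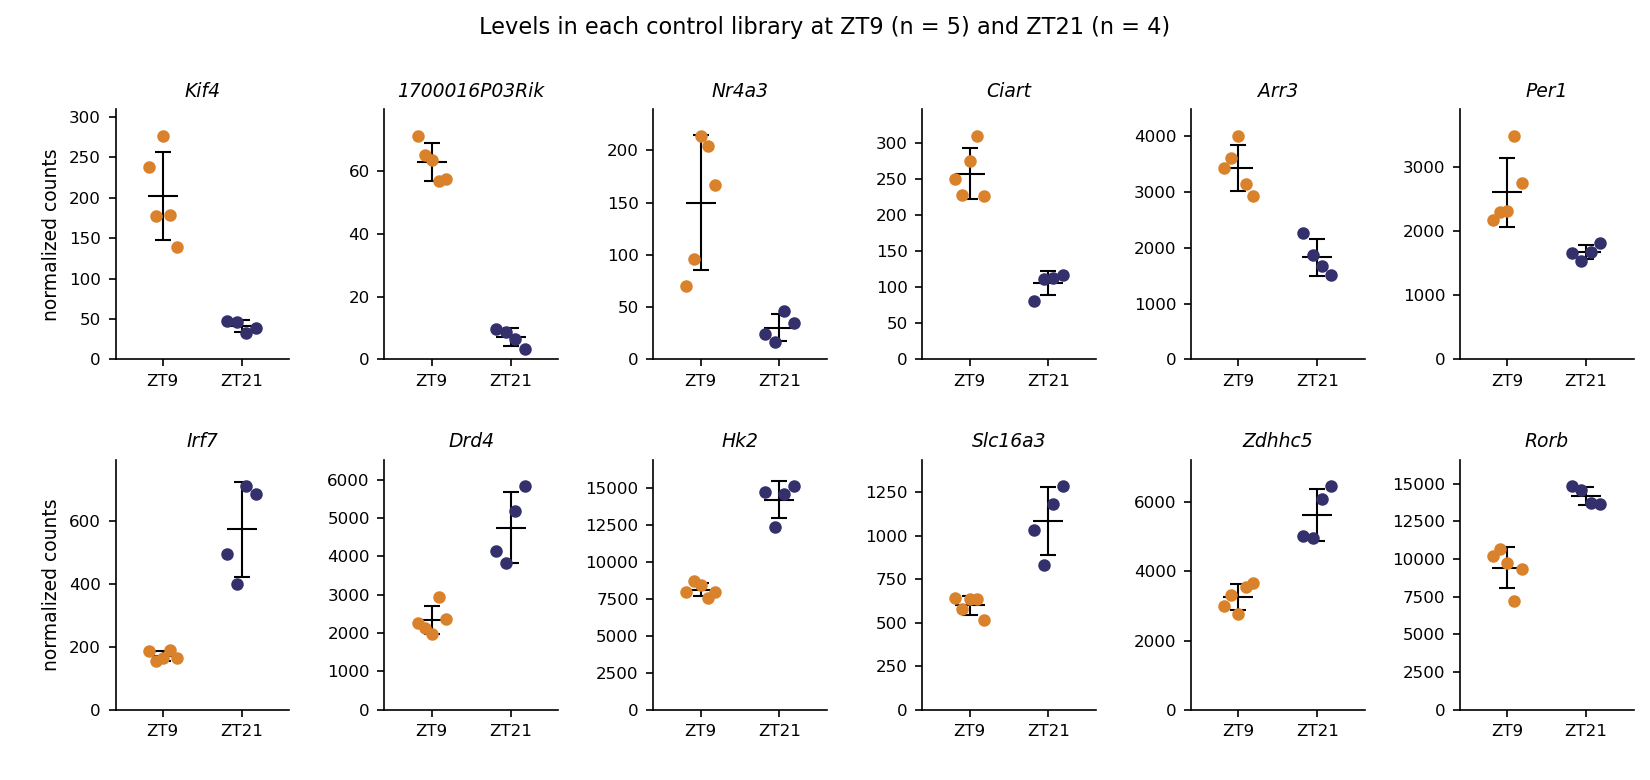
Normalized counts of 12 genes in each control library, with a panel for each gene and a vertical axis from 0. Orange points are the 5 libraries at ZT9, dark points the 4 libraries at ZT21, and the bars give the mean and SD. In each panel the 2 groups do not overlap, with the widest spread at ZT9 for Nr4a3, from 70.2 to 214.

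Of the 15 genes of the core clock, 1 was higher (6.67%), 2 were lower (13.3%) and 12 did not pass the test, where 1.2% and 1.13% of all genes were called, and the median log2 fold change was -0.035. Rorb, a nuclear receptor that activates Arntl and is needed for rod and cone development, had 10199, 10644, 9767, 7191 and 9326 at ZT9 and 14816, 14608, 13744 and 13622 at ZT21. All night libraries exceeded all day libraries (log2 fold change 0.59, SE 0.10, adjusted p = 0.000207). Per1, a repressor of the Clock and Arntl pair that is also induced by light in the brain clock, had 2161, 2289, 2312, 3474 and 2748 at ZT9 and 1659, 1535, 1678 and 1808 at ZT21. Its night libraries were below the day libraries (log2 fold change -0.64, SE 0.16, adjusted p = 0.0162), but the call was lost without replicate 2 or 3 at ZT21 or replicate 4 at ZT9 (highest adjusted p = 0.0747). Dbp, a transcription factor that binds the D-box of output genes, had 2370.5, 2006, 2041, 2754 and 2180.2 at ZT9 and 1395, 1685, 1711 and 1914 at ZT21 (log2 fold change -0.44, SE 0.12, adjusted p = 0.034). Its groups did not overlap either, and its call was lost without replicate 1 or 4 at ZT9 or without any of replicates 1, 2 and 3 at ZT21.

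Among the 12 clock genes that did not pass, the repressor Per2 had 695 to 891 at ZT9 and 482 to 699 at ZT21 and a log2 fold change of -0.38 (SE 0.14, adjusted p = 0.141). That of Per3 was -0.23. Both genes had overlapping groups. Of the activators, Arntl had 1462 to 1803 at ZT9 and 1716 to 1864 at ZT21 with a log2 fold change of 0.079 (SE 0.074, adjusted p = 0.71), Clock one of 0.12 (adjusted p = 0.573) and Npas2 one of 0.31 (adjusted p = 0.461). Cry1 and Cry2, partners of the Per proteins, had log2 fold changes of -0.08 and -0.12. The nuclear receptors Nr1d1, Nr1d2 and Rora had -0.033, -0.079 and 0.19, and the repressor Nfil3 had 0.33. The sign of Nr1d1 turned without single libraries, and the gene shares its locus with Thra on the opposite strand.

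Clock outputs included 3 called genes. Of 16 clock output and modifier genes, 1 was higher (6.25%) and 2 were lower (12.5%), where 1.2% and 1.13% of all genes were. Ciart, a repressor of the Clock and Arntl pair, had 249, 227, 274, 309 and 227 at ZT9 and 80.6, 111, 112 and 117 at ZT21. The groups were well apart (log2 fold change -1.28, SE 0.16, adjusted p = 2.28e-07). Tef, a relative of Dbp, had 3877, 3667, 3653, 3847 and 3788 at ZT9 and 3053, 3379, 3307 and 3191 at ZT21 (log2 fold change -0.23, SE 0.057, adjusted p = 0.0162). Cipc, which inhibits the Clock protein, had 1403, 1360.1, 1315, 1440.5 and 1418 at ZT9 and 1650.1, 1625, 1515 and 1657 at ZT21 (log2 fold change 0.21, SE 0.058, adjusted p = 0.0316). For both of these small changes the groups did not overlap. The call of Tef was lost without replicate 1 or 4 at ZT21, and that of Cipc without replicate 2 or 3 at ZT9, without any of replicates 1, 2 and 4 at ZT21, and with library totals.

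The 6 called genes of these 2 clock lists had 10 promoter windows in RefSeq (GRCm38.p6), each running from 250 bases before to 50 bases after a transcription start. The E-box CACGTG, the site of the Clock and Arntl pair, was searched in them, and as it is its own reverse complement a match counts for both strands. It was in a window of 4 of the 6 genes, Per1, Tef, Ciart and Cipc, and in no window of Rorb or Dbp. Among all 32851 windows, 7.15% held it, and of the 11936 tested genes with a window, 11.2% did in at least 1. A match describes these letters and not a bound site. Windows are shown for the 4 genes, because 3 of them were lower and 1 higher with the same motif. Capitals mark the E-box.
Per1, chr11:69098699-69098998, plus strand: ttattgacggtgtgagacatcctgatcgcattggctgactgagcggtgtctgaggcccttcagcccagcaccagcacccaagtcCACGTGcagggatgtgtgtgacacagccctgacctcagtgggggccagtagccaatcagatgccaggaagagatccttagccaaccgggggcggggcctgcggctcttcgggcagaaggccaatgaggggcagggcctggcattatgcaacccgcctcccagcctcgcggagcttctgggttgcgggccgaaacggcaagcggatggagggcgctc
Tef, chr15:81802423-81802722, plus strand: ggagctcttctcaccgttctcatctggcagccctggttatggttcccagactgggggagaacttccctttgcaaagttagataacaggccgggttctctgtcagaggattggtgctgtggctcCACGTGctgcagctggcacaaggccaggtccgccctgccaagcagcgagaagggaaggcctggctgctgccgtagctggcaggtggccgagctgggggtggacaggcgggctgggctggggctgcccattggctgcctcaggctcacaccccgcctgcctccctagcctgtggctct
Ciart, chr3:95882179-95882478, minus strand: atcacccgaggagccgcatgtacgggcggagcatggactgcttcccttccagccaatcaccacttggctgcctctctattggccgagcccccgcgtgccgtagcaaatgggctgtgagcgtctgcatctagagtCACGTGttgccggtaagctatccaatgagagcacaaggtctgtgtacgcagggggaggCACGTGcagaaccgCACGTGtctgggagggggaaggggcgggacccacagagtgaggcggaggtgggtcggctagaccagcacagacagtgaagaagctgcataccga
Cipc, chr12:86947093-86947392, plus strand: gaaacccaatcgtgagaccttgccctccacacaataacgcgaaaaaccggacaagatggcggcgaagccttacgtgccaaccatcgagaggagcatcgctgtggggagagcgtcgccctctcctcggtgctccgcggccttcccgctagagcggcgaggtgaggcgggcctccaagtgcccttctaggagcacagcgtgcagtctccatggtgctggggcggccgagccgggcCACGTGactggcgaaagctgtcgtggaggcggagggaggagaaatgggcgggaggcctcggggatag

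The E-box began 166 bases before the start in Per1, 127 before it in the window of Tef shown and 17 before it in Cipc. In Ciart, the gene of the 4 with the largest change, there were 3, beginning 116, 58 and 44 bases before the start.

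Of the 6 genes that the study took as known clock-controlled genes, Drd4 and Plekhb1 were higher. Drd4 encodes the dopamine D4 receptor of photoreceptors, which lowers cyclic AMP and is made at night. It had 2254, 2125, 1983, 2933 and 2377 at ZT9 and 4139.8, 3836, 5184 and 5828 at ZT21. The 2 groups did not overlap and the mean was 2334 ± 365 (SD, n = 5) at ZT9 and 4747 ± 923 (SD, n = 4) at ZT21 (log2 fold change 1.02, SE 0.14, adjusted p = 1.96e-06). Plekhb1, a membrane protein of photoreceptors, had 7938, 8316, 7811, 9945 and 9464 at ZT9 and 12298, 11403, 14522 and 16867 at ZT21 (log2 fold change 0.66, SE 0.092, adjusted p = 3.55e-06). Its night libraries were all above its day libraries. The other 4 of the 6, Adcy1, Nr2e3, Cys1 and Usp2, did not pass, with log2 fold changes of -0.15, -0.084, 0.10 and -0.42 and adjusted p-values from 0.0851 to 0.805. Of 22 tested genes of dopamine, cyclic AMP and melatonin signalling, 4 were higher (18.2%, where 1.2% of all genes were) and 0 were lower, with a median of 0.076. Beside Drd4 they were the dopamine receptor Drd2, the G protein subunit Gnaz and Pdc. Drd2, which is also the autoreceptor of dopamine cells, had 403, 388, 365, 552 and 427 at ZT9 and 551, 583, 627 and 721 at ZT21, with overlapping groups, as replicate 4 at ZT9 reached the lowest night library (log2 fold change 0.54, SE 0.11, adjusted p = 0.00184). Gnaz, whose protein couples receptors to lower cyclic AMP, had 1779, 1776, 1609, 2529 and 2203 at ZT9 and 2656, 2641, 3539.9 and 4047 at ZT21 (log2 fold change 0.70, SE 0.13, adjusted p = 0.000441). The groups of Gnaz did not overlap. Pdc encodes phosducin, which binds the beta and gamma subunits of transducin in rods, and had 16193 to 19304 at ZT9 and 22312 to 26382 at ZT21 (log2 fold change 0.42, SE 0.09, adjusted p = 0.00315), but its call was lost with the GC trend removed, where its adjusted p reached 0.184.

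Many genes of glucose breakdown were higher at ZT21 than at ZT9, and none was lower. Of 27 glycolysis genes tested, 12 were higher and 0 lower, which is 44.4% against 1.2% of all genes, and the median log2 fold change was 0.31. In all, 23 of the 27 had a positive value. Hk2, a hexokinase of the first step of the pathway that is abundant in photoreceptors, had 7953, 8756, 8454, 7574 and 7978 at ZT9 and 14778, 12352, 14612 and 15131 at ZT21. The groups were far apart, with a mean of 8143 ± 464 (SD, n = 5) at ZT9 and 14218 ± 1263 (SD, n = 4) at ZT21 (log2 fold change 0.80, SE 0.10, adjusted p = 4.31e-07). Slc16a3, a transporter that exports lactate, had 641, 578, 638, 635 and 515 at ZT9 and 1037, 834, 1182 and 1285 at ZT21 (log2 fold change 0.85, SE 0.14, adjusted p = 0.000119). Pfkl, a phosphofructokinase, had 4762, 4724, 4369, 4959 and 4370.4 at ZT9 and 6404, 5749, 6932 and 7133 at ZT21 (log2 fold change 0.49, SE 0.087, adjusted p = 0.00031). Every night library was above every day library for these genes. Tpi1, which converts between the triose phosphates, had 4472 to 5861 at ZT9 and 6349 to 8684 at ZT21 (log2 fold change 0.50, SE 0.095, adjusted p = 0.000922). The other 8, named because the whole pathway is described, were Pgk1 (0.58), Aldoa (0.48), Pgam1 (0.43), Pkm (0.41), Ldha (0.39), the glucose transporter Slc2a1 (0.38), Pfkp (0.33) and Eno2 (0.31). Their steps run from glucose entry to lactate. Hkdc1, a relative of the hexokinases that is not on the list, had 123, 97, 82.5, 95.2 and 90.5 at ZT9 and 186, 135, 157 and 211 at ZT21 (log2 fold change 0.81, SE 0.12, adjusted p = 1.78e-05), but was lower at ZT17 than at ZT5 in controls (log2 fold change -0.44, adjusted p = 0.0044). The number of glycolysis genes called was 7 without replicate 3 at ZT21, 8 without replicate 4 at ZT21 or replicate 3 at ZT9, and 7 when the 9 libraries were fitted alone. Several of these genes have processed pseudogenes, and how reads with more than 1 match were counted is not given in the sources used here.

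The core ACGTG of the hypoxia response element was searched on both strands in the promoter windows of the 12 called glycolysis genes. It was in a window of 8 of them, Hk2, Aldoa, Pgk1, Pgam1, Pkm, Ldha, Slc2a1 and Slc16a3. Of all windows, 19.6% held it, and of the 11936 tested genes with a window, 28% did. Every E-box holds this core too, so the 2 motifs overlap. Among 28 tested hypoxia factors and targets of HIF1, 5 were higher (17.9%, where 1.2% of all genes were) and 0 lower, and the median was 0.19. Egln1, the oxygen sensor that marks HIF1 for destruction, had 1492, 1393, 1452, 1452 and 1331 at ZT9 and 2003, 1694, 2122 and 2447 at ZT21 (log2 fold change 0.53, SE 0.096, adjusted p = 0.000385). Pdk1, a kinase that closes the entry of pyruvate to the citric acid cycle, had 721, 728, 681, 661 and 627 at ZT9 and 963, 872, 989.7 and 1069 at ZT21 (log2 fold change 0.51, SE 0.095, adjusted p = 0.000662). In both genes the groups did not overlap. Bnip3, a mitophagy receptor, had 628 to 911 at ZT9 and 1071 to 1362 at ZT21 (log2 fold change 0.56, SE 0.12, adjusted p = 0.00471), and P4ha1, a subunit of the collagen prolyl hydroxylase, had 1093 to 1242 at ZT9 and 1432 to 1649 at ZT21 (log2 fold change 0.39, SE 0.091, adjusted p = 0.00948). Fam162a was the fifth (log2 fold change 0.42, SE 0.11, adjusted p = 0.0226). The count was 3 without replicate 3 at ZT21, where P4ha1 lost its call. In the citric acid cycle list, Pdk1 was the 1 gene of 29 that passed, and the median was 0.048. Of 36 nuclear subunits of complex I, 0 passed, and 31 had a positive value, with a median of 0.12.

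**Figure D3:**
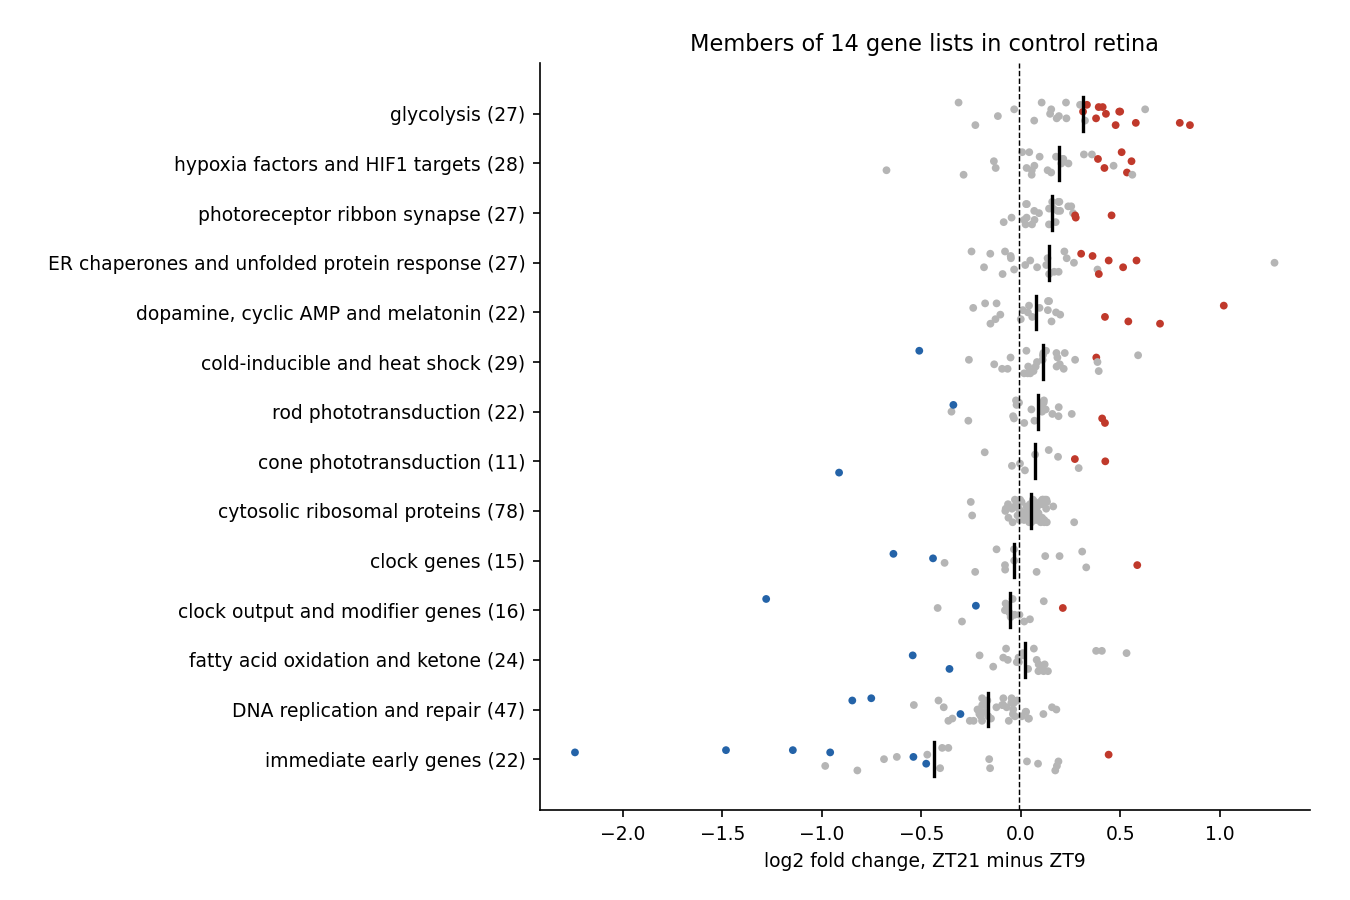
Log2 fold change at ZT21 against ZT9 of every tested member of 14 gene lists, with the number of members in parentheses. Red points were called higher, blue ones lower and grey ones did not pass, the black bar is the list's median and the dashed line the median of all genes tested. Glycolysis has its median at 0.31 and immediate early genes at -0.44, and the clock genes lie on both sides of 0.

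Genes lower at ZT21 included 2 of fat oxidation and Txnip. Of 24 tested genes of fatty acid oxidation and ketone use, 2 were lower (8.33%, where 1.13% of all genes were) and 0 higher. The median was 0.023, and 14 values were positive. Acadm, the dehydrogenase of medium-chain fatty acids, had 1122, 1185, 1052, 1227 and 1259 at ZT9 and 876, 765, 794 and 786 at ZT21 (log2 fold change -0.54, SE 0.078, adjusted p = 5.23e-06). Cpt1a, which admits long-chain fatty acids to mitochondria, had 3009, 3225, 3005, 3594 and 3528 at ZT9 and 2793, 2591, 2244 and 2620.4 at ZT21 (log2 fold change -0.36, SE 0.069, adjusted p = 0.000938). The groups of both did not overlap. Of 12 genes of glucose sensing and the arrestin domain family, 1 was lower (8.33%) and 0 higher, and the median was -0.065. This was Txnip, a thioredoxin inhibitor that is induced by glucose and limits its uptake, with 135, 122, 139.6, 137 and 149 at ZT9 and 80.6, 106, 55.4 and 74.8 at ZT21 (log2 fold change -0.82, SE 0.18, adjusted p = 0.0039). The ZT21 libraries of Txnip were all lower, its log2 fold change at ZT17 against ZT5 was -0.096 (adjusted p = 0.70), and its call was lost without replicate 3 at ZT21 (adjusted p = 0.0652).

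Several activity-dependent genes were lower at ZT21. Of 22 tested immediate early genes, which neurons switch on within minutes of stimulation, 6 were lower and 1 was higher, and the median was -0.44, with 16 negative values. The 6 make up 27.3% of the list, where 1.13% of all genes were lower. Nr4a3, an orphan nuclear receptor, had 70.2, 95.6, 214, 204 and 166 at ZT9 and 24.1, 16.4, 46.6 and 34.8 at ZT21 (log2 fold change -2.24, SE 0.37, adjusted p = 0.000127). Npas4, a transcription factor induced by calcium entry, had 68.5, 46.5, 88.8, 127 and 83.6 at ZT9 and 36.1, 29, 42.5 and 39.9 at ZT21 (log2 fold change -1.15, SE 0.25, adjusted p = 0.0052). Fosl2, of the Fos family, had 163, 159, 239, 315 and 334 at ZT9 and 147, 115, 109 and 131 at ZT21 (log2 fold change -0.96, SE 0.21, adjusted p = 0.00385). None of the 3 had overlapping groups. Btg2, which restrains cell division, had 1465 to 1668 at ZT9 and 1051 to 1219 at ZT21 (log2 fold change -0.48, SE 0.087, adjusted p = 0.000507). The others were Egr3 (log2 fold change -1.48, SE 0.36, adjusted p = 0.0109) and the MAP kinase phosphatase Dusp6 (log2 fold change -0.54, SE 0.14, adjusted p = 0.0227). Ier5 was the higher one, from 187 to 248 at ZT9 and 249.9 to 327 at ZT21 (log2 fold change 0.44, SE 0.12, adjusted p = 0.0227). Its highest day library lay just below its lowest night library in normalized counts, but the groups overlapped in CPM. Fos itself had 476 to 773 at ZT9 and 329.8 to 431 at ZT21, with separate groups and a log2 fold change of -0.69, but did not pass (adjusted p = 0.448). The number lower was 4 without replicate 3 at ZT21, and Ier5 lost its call without any of replicates 2, 3 and 5 at ZT9 or 3 and 4 at ZT21. The list had a median of 0.049 in diabetic retinas at ZT21 against ZT9, where 2 were lower and 0 higher, and one of 0.12 in controls at ZT17 against ZT5. The growth factor Bdnf, whose transcription follows activity, had 158, 177, 175, 168 and 188 at ZT9 and 146, 116, 73 and 96.9 at ZT21 (log2 fold change -0.71, SE 0.19, adjusted p = 0.0284). It was the 1 of 35 growth factor and angiogenic genes that passed, and it lost its call without any of replicates 2, 3 and 5 at ZT9 or 3 and 4 at ZT21. Of 20 targets of glucocorticoids, Per1 alone passed.

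In photoreceptors, called genes of the light response lay in both directions. Of 22 rod phototransduction genes, 2 were higher and 1 was lower, and of 11 cone genes 2 were higher and 1 was lower, where 1.2% and 1.13% of all genes were. Opn1sw, the short-wavelength cone opsin, had 3805, 4329, 3931, 4891 and 4346 at ZT9 and 5222, 5703, 6062 and 5956 at ZT21 (log2 fold change 0.42, SE 0.098, adjusted p = 0.00735). The night libraries all exceeded the day libraries, while Arr3, the cone arrestin given above, went the other way. Gnb3, the beta subunit of cone transducin, had 2763 to 3901 at ZT9 and 3612 to 4440.1 at ZT21 (log2 fold change 0.27, SE 0.076, adjusted p = 0.037), with overlapping groups. In rods, Sag, the rod arrestin, had 41779.9, 47823, 45329, 54254 and 49096 at ZT9 and 39493, 38715, 35468 and 37559 at ZT21 (log2 fold change -0.34, SE 0.079, adjusted p = 0.00865). Rcvrn, or recoverin, a calcium sensor that delays shut-off of the opsin, had 8333, 9364, 8276, 12473 and 11710.1 at ZT9 and 11899.7, 11925, 13707 and 15913 at ZT21 (log2 fold change 0.41, SE 0.11, adjusted p = 0.0247). Sag did not overlap between the groups and Rcvrn did. Sag lost its call without replicate 3 at ZT21. Rcvrn lost it without any of replicates 1, 2 and 3 at ZT9 or 3 and 4 at ZT21, and Gnb3 without any of replicates 2, 3 and 5 at ZT9 or 1, 3 and 4 at ZT21. Rcvrn and Gnb3 also lost it with control libraries only, and Gnb3 with library totals or with no filter on low counts.

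Of 17 photoreceptor channels and pumps, 1 was higher and 1 was lower (5.88% each), where 1.2% and 1.13% of all genes were. Clcn2, a chloride channel, had 452, 429, 359.6, 482 and 326 at ZT9 and 302, 294, 295 and 305 at ZT21 (log2 fold change -0.45, SE 0.11, adjusted p = 0.0103), and its groups did not overlap. Among 18 tested genes of outer segment structure, Pcdh15, a cadherin that also forms the tip links of hair cells, had 7782, 9238, 9524, 8165 and 8689.7 at ZT9 and 5935, 5777, 5971 and 5416 at ZT21 (log2 fold change -0.59, SE 0.11, adjusted p = 0.000446). Its ZT21 libraries were closely grouped and below every ZT9 library. Control libraries had 6259 to 7368 at ZT5 and 6440 to 8165 at ZT17, so these times overlapped. The photoreceptor cadherin Cdhr1 (log2 fold change 0.26, SE 0.069, adjusted p = 0.0264) and the matrix protein Impg1 (log2 fold change 0.22, SE 0.059, adjusted p = 0.0303) were higher by small amounts, and each lost its call without any of replicates 1 and 3 at ZT9 or 3 and 4 at ZT21, Cdhr1 also without replicate 2 at ZT9. Both calls were also lost with no filter on low counts, and that of Impg1 with library totals or with the GC trend removed. Of 18 photoreceptor transcription factors, Rorb and Esrrb were higher. Esrrb, an orphan receptor on which rod survival depends, had 6212 to 8569.7 at ZT9 and 8671 to 11272 at ZT21 (log2 fold change 0.39, SE 0.10, adjusted p = 0.0214), and lost its call without replicate 1 or 3 at ZT9 or 3 or 4 at ZT21. Of 18 visual cycle genes, 0 passed and the median was 0.076.

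Genes of the photoreceptor ribbon synapse and of the bipolar cells that it feeds were higher where they changed. Of 27 synapse genes, 3 were higher (11.1%, where 1.2% of all genes were) and 0 lower, 25 had a positive value, as did 9094 of all 19120 genes, and the median was 0.16. Stx3, the syntaxin of ribbon synapses, had 7168, 8022, 7257, 7295 and 8458 at ZT9 and 9244, 8924, 9131 and 9760.0 at ZT21 (log2 fold change 0.27, SE 0.06, adjusted p = 0.00489). Grm6, the glutamate receptor of ON bipolar cells, had 1972, 1829, 1479.6, 2170.4 and 1705 at ZT9 and 2592, 2313, 2385 and 2789 at ZT21 (log2 fold change 0.46, SE 0.089, adjusted p = 0.00109). Trpm1, the cation channel that Grm6 controls, had 5809 to 6969 at ZT9 and 7423 to 7878 at ZT21 (log2 fold change 0.28, SE 0.073, adjusted p = 0.0251). All 3 were separate between the groups. With library totals 1 of them passed, and Trpm1 lost its call without any of replicates 3 and 5 at ZT9 or 2, 3 and 4 at ZT21. Of 12 bipolar cell markers, which hold Grm6 and Trpm1 as well, 5 were higher (41.7%), and Vsx1 (0.47) and Cabp5 (0.38) were among the others. Their sum over the 12 genes ranged from 1725 to 2125 CPM at ZT9 and from 2178 to 2481 CPM at ZT21. In whole retina, more cells of a type and more RNA per cell cannot be told apart. Of the markers of retinal pigment epithelium, Cdh3, a cadherin, was the 1 of 13 tested that passed, with 31.7, 37.2, 34.9, 17.9 and 37.9 at ZT9 and 97.4, 61.8, 75.5 and 79.9 at ZT21 (log2 fold change 1.27, SE 0.26, adjusted p = 0.00248). The sum of the 14 markers of that tissue was 176 to 229 CPM at ZT9 and 220.4 to 367 CPM at ZT21, and its part in the change of Cdh3 was not tested. Cldn5, a tight junction protein of endothelium, had 62.4 to 90.5 at ZT9 and 119.9 to 146 at ZT21 (log2 fold change 0.75, SE 0.15, adjusted p = 0.00168). At ZT17 against ZT5 in controls the log2 fold change of Cldn5 was 0.035 (adjusted p = 0.881). The sum of the 12 endothelial markers was 387 to 450.2 CPM at ZT9 and 394 to 414 CPM at ZT21, so it overlapped.

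Several chaperones of the endoplasmic reticulum were higher at ZT21 than at ZT9. Of 27 genes of these chaperones and the unfolded protein response, 6 were higher (22.2%, where 1.2% of all genes were) and 0 lower, with a median of 0.14. Hsp90b1, the Hsp90 protein of the endoplasmic reticulum, had 3219, 3480.0, 3181, 2602 and 3804 at ZT9 and 4879, 4297, 5321 and 5077 at ZT21 (log2 fold change 0.58, SE 0.12, adjusted p = 0.0019). Pdia6, a protein disulfide isomerase, had 717, 663, 655, 756 and 798 at ZT9 and 977, 876, 958 and 972 at ZT21 (log2 fold change 0.39, SE 0.079, adjusted p = 0.00183). Both were above the ZT9 libraries in every ZT21 library, but Hsp90b1 had a log2 fold change of 0.041 (adjusted p = 0.825) at ZT17 against ZT5 in controls. Xbp1, the transcription factor of the unfolded protein response, had 563 to 817 at ZT9 and 808 to 1002 at ZT21 (log2 fold change 0.44, SE 0.097, adjusted p = 0.00489), and Hyou1 had 1399 to 1929 at ZT9 and 1846 to 2081 at ZT21 (log2 fold change 0.30, SE 0.071, adjusted p = 0.00946), with some overlap. Calr (0.51) and Pdia3 (0.36) were the other 2. The count was 3 without replicate 3 at ZT9 or replicate 4 at ZT21, 4 without replicate 1 at ZT9 or replicate 3 at ZT21, and 2 with the 9 libraries alone. Of 29 heat shock and cold-inducible genes, Hsp90aa1 was higher (log2 fold change 0.38, SE 0.082, adjusted p = 0.00431), a call lost without replicate 3 at ZT21. Rbm3, an RNA-binding protein induced by cold, was lower, with 1004, 1005, 904, 948 and 845 at ZT9 and 805, 675, 685 and 493 at ZT21 (log2 fold change -0.51, SE 0.097, adjusted p = 0.000803). Its groups did not overlap.

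Of 47 genes of DNA replication and repair, 3 were lower (6.38%, where 1.13% of all genes were) and 0 higher, and 39 had a negative value, as did 10026 of all 19120 genes, with a median of -0.16. Mcm3, of the replicative helicase, had 45.4, 37.2, 44.4, 49.7 and 39.5 at ZT9 and 18, 30.3, 22.5 and 25.5 at ZT21 (log2 fold change -0.85, SE 0.19, adjusted p = 0.00589), without overlap. Xrcc6, of the end-joining complex, had 376 to 424 at ZT9 and 273 to 366 at ZT21 (log2 fold change -0.30, SE 0.087, adjusted p = 0.044). The count was 1 without replicate 3 of either time or replicate 4 at ZT21, and 6 with library totals. Xrcc6 lost its call without any 1 of 7 libraries, all but replicate 5 at ZT9 and replicate 1 at ZT21. Among 18 genes of reactive gliosis, Edn2, an endothelin made by stressed photoreceptors, had 17.9 to 39.5 at ZT9 and 6.31 to 19.2 at ZT21 (log2 fold change -1.43, SE 0.36, adjusted p = 0.0174), and Cebpd, an inflammatory transcription factor, had 77 to 137 at ZT9 and 27.8 to 68.8 at ZT21 (log2 fold change -0.95, SE 0.26, adjusted p = 0.0311). Each lost its call without any 1 of 4 libraries, Edn2 without replicate 5 at ZT9 or replicates 2, 3 or 4 at ZT21 and Cebpd without replicates 2 or 4 at ZT9 or 2 or 3 at ZT21. In 3 further lists, 1 gene each was lower. The splicing regulator Hnrnpdl was lower (log2 fold change -0.32, SE 0.069, adjusted p = 0.0031), the autophagy gene Atg16l1 was lower (log2 fold change -0.35, SE 0.08, adjusted p = 0.00653) in a list where Bnip3 was higher, and lost its call without replicate 4 at ZT21, and the long non-coding RNA Miat was lower (log2 fold change -0.41, SE 0.11, adjusted p = 0.0382) and lost its call with no filter on low counts and without any of replicates 1, 3, 4 and 5 at ZT9 or 1, 2 and 4 at ZT21. All 3 lost their call with the 9 libraries alone. BC027072 was named for its small p-value, with 6379, 7147, 6746, 9015 and 7449 at ZT9 and 5114, 4681, 4093 and 4157 at ZT21 (log2 fold change -0.71, SE 0.10, adjusted p = 5.23e-06), and its night libraries were all below its day libraries.

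In 13 lists, with 358 genes in all, 0 passed in either direction with edgeR, while 28 had an unadjusted p under 0.05 and 2 passed with DESeq2. Over all genes, 2.33% passed with edgeR and 13.7% had an unadjusted p under 0.05. They were the visual cycle, cholesterol synthesis, fatty acid synthesis, complex I, the mitochondrial genome, cytosolic ribosomal proteins, ATF4 targets, the proteasome, the lysosome, NRF2 targets, Muller glia homeostasis, Bardet-Biedl transport and histone modifiers. The 78 cytosolic ribosomal protein genes had a median of 0.05, from -0.25 to 0.27. The 25 cholesterol synthesis genes had a median of -0.012 and the 31 proteasome genes one of 0.02.

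The other times of day were then examined for the called genes. In control libraries that took no part in the comparison, 225 of the 229 higher genes and 199 of the 216 lower genes had the same sign at ZT17 against ZT5. Over all genes tested, 67% had the same sign in these 2 comparisons. Of the same genes, 173 and 120 passed the test at ZT17 against ZT5 in that direction, and 1 and 1 in the opposite direction, while 7.42% and 7.66% of all genes passed as higher and lower, 15.1% in all. Hk2 had 7605 ± 732 (SD, n = 6) normalized counts at ZT5 and 15636 ± 1329.9 (SD, n = 5) at ZT17. Kif4 had 166 ± 18.6 (SD, n = 6) and 62.1 ± 5.07 (SD, n = 5). Per1 was less steady, with 1847 ± 363 (SD, n = 6) at ZT5 and 2139 ± 489 (SD, n = 5) at ZT17, a log2 fold change of 0.20 in the other direction.

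**Figure D4:**
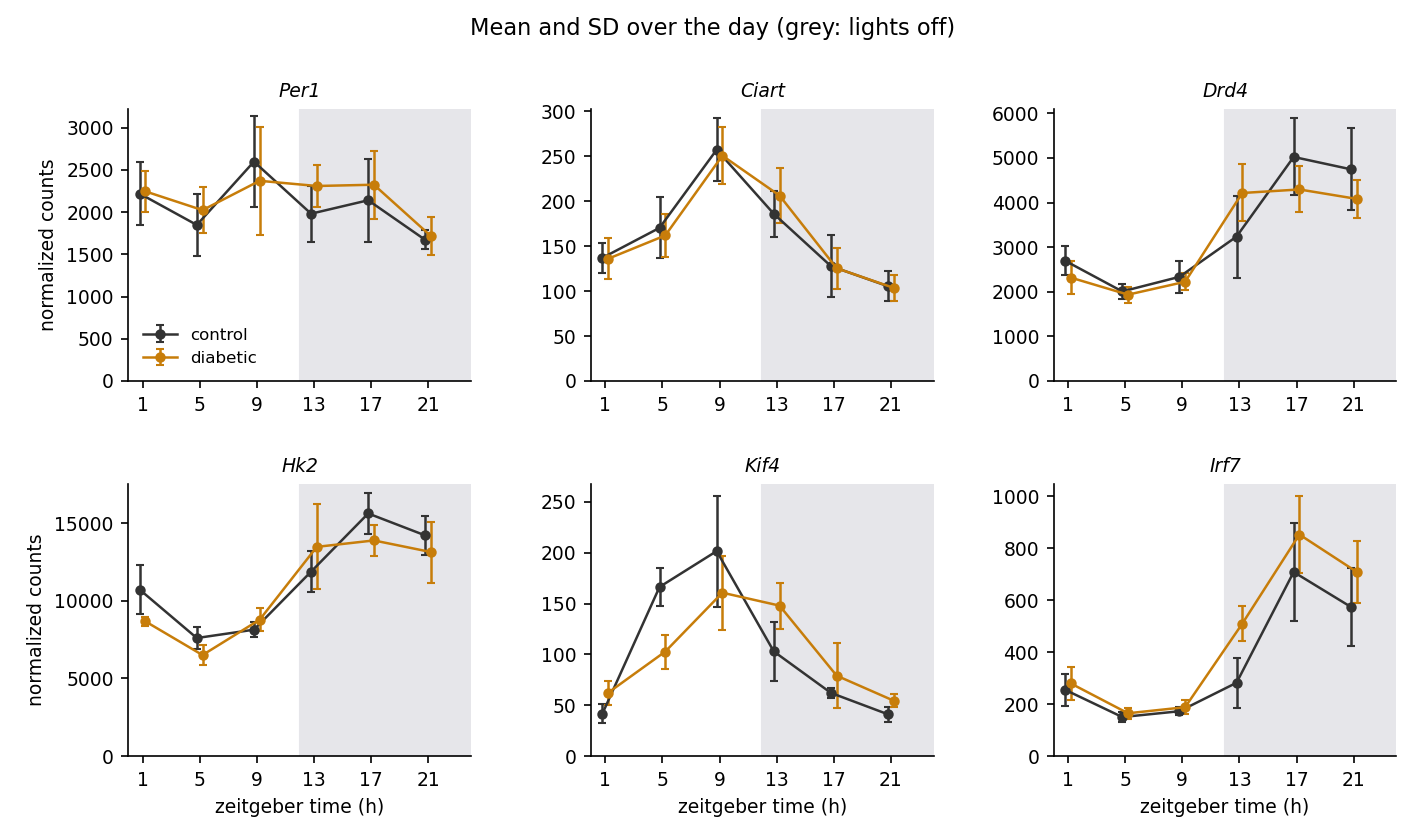
Mean and SD of the normalized counts of 6 genes at 6 times of day in control (black) and diabetic (orange) retinas, with 4 to 6 libraries a point and lights off in grey. Drd4, Hk2 and Irf7 were high at ZT17 and ZT21, Ciart and Kif4 were highest at ZT9, and Per1 had wide error bars.

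Nearly all of these genes had the same direction in diabetic retinas. Of the control genes, 224 of the 229 higher and 211 of the 216 lower ones had the same sign in diabetic ZT21 against ZT9, whose 10 libraries are separate from those of the controls. Of all genes, 71.2% had the same sign. In diabetic retinas 140 and 120 of them passed the test in that direction, and 0 passed in the opposite one, while 420 genes (2.2%) were higher and 552 (2.89%) lower there, 5.08% in either direction. The higher genes had a median log2 fold change of 0.39 in controls and 0.29 in diabetic retinas, and the lower genes had medians of -0.48 and -0.38. By list, glycolysis had a diabetic median of 0.17 with 8 genes higher, and the chaperones of the endoplasmic reticulum one of 0.032 with 2 higher. Hypoxia factors and targets had one of 0.077 with 1 higher and 2 lower. The called genes were chosen by their control values, so their medians are no test of the genotypes. Ciart had log2 fold changes of -1.28 and -1.27, Arr3 of -0.91 and -1.17, Irf7 of 1.74 and 1.91 and Drd4 of 1.02 and 0.87 in control and diabetic retinas. Acadm and Sik2 had -0.54 and -0.53 for the first and 0.78 and 0.73 for the second.

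**Figure D5:**
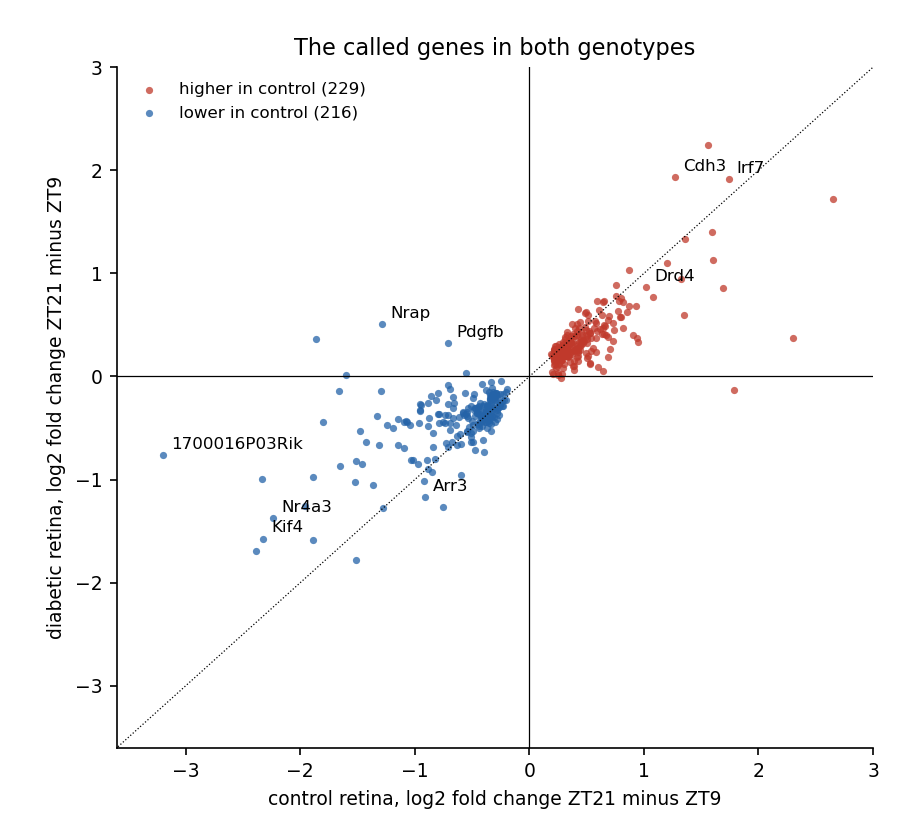
Log2 fold change at ZT21 against ZT9 in control retinas, on the horizontal axis, and in diabetic retinas, on the vertical axis, for the genes called in controls. Red points were higher and blue ones lower in controls, the dotted line marks equal values, and the 3 lens crystallins lie outside the axes. Nearly all points share their sign, and 1700016P03Rik, Nrap and Pdgfb lie far from the dotted line.

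No gene passed a test for a difference between genotypes in its change from ZT9 to ZT21 after adjustment. The test of the difference in edgeR gave 0 genes at an adjusted p under 0.05 and 485 (2.54%) at an unadjusted p under 0.05, and DESeq2 also gave 0. The 5 genes with the smallest p were 1700016P03Rik, Pdgfb, Cryaa, Nrap and Apod. For 1700016P03Rik the log2 fold change was -3.20 in control and -0.76 in diabetic retinas, a difference of 2.43 (SE 0.52, unadjusted p = 2.19e-05, adjusted p = 0.418) on the log2 scale. Its counts in diabetic retinas were 22.1, 26.2, 22.9, 16.9 and 16.3 at ZT9 and 12.8, 9.28, 13.6, 16.4 and 8.95 at ZT21. All 5 at ZT9 lay below every control library at ZT9, and 3 of the 5 at ZT21 lay above every control library at ZT21. Pdgfb, a growth factor that recruits pericytes to vessels, was lower at ZT21 in control retinas, with 51.1 to 85.5 at ZT9 and 38.5 to 42.5 at ZT21 (log2 fold change -0.71, SE 0.18, adjusted p = 0.0219), and had 0.32 in diabetic ones (adjusted p = 0.321). Nrap had 10.1 to 23.5 at ZT9 and 3.61 to 11.9 at ZT21 in controls (log2 fold change -1.29, SE 0.34, adjusted p = 0.0241) and 0.51 in diabetic retinas. Apod, an apolipoprotein, had 7.7 to 10.8 at ZT9 and 2.41 to 4.82 at ZT21 in controls, where it did not pass (log2 fold change -1.21, SE 0.56, adjusted p = 0.314), and 1.35 in diabetic retinas. There Apod had 3.43, 14.8, 6.36, 57.8 and 8.95 at ZT21, with replicate 4 far above the others. The value of Cryaa rests on a few libraries. In controls it had 17898 normalized counts in replicate 2 at ZT21, the library with lens RNA. In diabetic retinas it had 381 and 295 in replicates 4 and 5 at ZT9. In controls, Pdgfb lost its call without replicate 1 or 4 at ZT9 or any of the 4 ZT21 libraries, and Nrap without replicates 1, 3 or 4 at ZT9 or 1, 2 or 3 at ZT21.

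Reads of overlapping genes could be shared, since the counting's use of strand is not given in the sources used here. Overlaps with a tested gene were found for 25 of the called genes named above, in 29 pairs, 22 of them on opposite strands. Among these, Kif4 overlaps Pdzd11, Irf7 overlaps Phrf1, Zdhhc5 overlaps Med19, Sik2 overlaps Ppp2r1b, Tpi1 overlaps Spsb2 and Opn1sw overlaps Calu, all on opposite strands. Of the 29 partners, 2 passed the test, Rhobtb1 and 1700016P03Rik, the partners of A930033H14Rik and Mir212 given above. The log2 fold changes of the others ran from -0.39 for 1810014B01Rik, which overlaps Hsp90b1, to 0.73 for Mir211, which lies within Trpm1.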

How the data were processed

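Total RNA of single retinas was sequenced as paired reads of ribosome-depleted libraries. The authors aligned reads with STAR 2.7.4a to the mouse genome (GRCm38.p5, Gencode M15 genes) and counted them with HTSeq 0.11.1. The deposited values are raw counts per gene symbol, not normalized or filtered, for 52459 symbols, of which 15226 had no read. Whether counting used strand is not given in the sources used here. Symbols of 18377 of the 19120 genes tested matched Gencode M21, the source of positions and GC content.

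Genes with a median above 4 DESeq2-normalized counts over the 58 libraries were tested in edgeR 4.0.16 (TMM, quasi-likelihood, 12 groups, R 4.3.3), with Benjamini-Hochberg adjustment over all genes. Printed levels are counts divided by DESeq2 1.42.0 size factors. Depth was 10596639 to 19003584 counted reads in the 9 libraries compared, so genes near the filter have a large sampling error. The scripts were tested on simulated data. Marker sums were tested by exact permutation in Python 3.11.15.

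The named genes were the 10 largest changes each way among called genes with separate groups and a mean of at least 50, leaving out model symbols, the 5 smallest p-values each way, 15 clock and 6 clock-controlled genes, up to 4 called genes each way per list, and the 5 smallest p-values between genotypes. Genes named beyond this were chosen after their values were seen. Some genes that met the rule are not reported here. Members and lists were chosen with earlier results of these data known. Alternatives were other scalings, filters, tests and sets of libraries, a replicate block, a GC correction and each library left out.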

Additional observations from a re-analysis of the deposited data

Results flagged for a closer look

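Dixon's test was applied to each of 88 named genes at each time, 176 groups in all, and 10 groups (5.68%) held a library far from the others, where chance gives about 5%. Replicate 1 at ZT21 stood out for Ciart, at 80.6 normalized counts with the nearest library at 111, for Edn2, at 19.2 against 6.8, and for Trpm1, at 7423 against 7822. Replicate 2 at ZT21 stood out for Cryaa, at 17898 against 47.4, and for Stc1, at 117 against 103. Replicate 3 at ZT21 stood out for Adprhl1, at 24.1 against 42.5. At ZT9, replicate 4 stood out for Bnip3, at 628 against 885, and for Rora, at 5149 against 6580.0. Replicate 5 at ZT9 stood out for Hsp90aa1, at 13028 against 10554, and for Per3, at 2265 against 2682.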

How the results depend on the processing

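Of the 88 named genes, 72 were called, and 31 of these kept their call and direction in every alternative that gave them an adjusted p. None of the 72 changed direction. DESeq2 gave no adjusted p for Cryaa, Nrap and Apod. Against 229 higher and 216 lower genes, library totals gave 147 and 447, no filter on low counts 157 and 137, the 9 libraries alone 67 and 39, the GC trend removed 479 and 383, and the replicate block with the GC trend removed 573 and 466. DESeq2 gave 310 and 239, of which 218 and 202 were the same genes. Leaving out 1 library gave 107 to 255 higher and 87 to 262 lower genes, the lowest without replicate 3 at ZT21. The 435 called genes with the same sign in diabetic retinas became 281 with no filter, 841 with the GC trend removed, 1016 with the block as well, and 190 to 492 without 1 library. The 424 with the same sign at ZT17 against ZT5 became 280, 823, 988 and 185 to 480. The cause was not tested.

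The samples share only a replicate number: deviations of same-numbered libraries from their group means correlated at 0.184, 0.348, -0.0697 and 0.634 over 12905 genes, and replicates 1 and 3 at ZT9 correlated better with another number. With the replicate block 301 genes were higher and 273 lower, Usp2 passed (-0.38) and Thbs1 (0.82) and Xrcc6 (-0.29) did not.

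The sign turned for Nr1d1 without replicate 1 or 2 at ZT21 or replicate 4 at ZT9, where the log2 fold change was 0.042, 0.013 and 0.087, with a range over single libraries of -0.15 to 0.087. It was not called. The summed blood markers differed by -0.0622 CPM without replicate 1 at ZT9 and by -0.719 without replicate 4 at ZT21, with a range over single libraries of -0.719 to 0.487. Those of pericytes differed by -0.948 with library totals and by -0.202 without replicate 3 at ZT9, with a range of -0.202 to 6.42. No marker sum had an adjusted p under 0.05 in any setting.

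With 4 and 5 libraries and 10596639 to 19003584 counted reads, small changes of genes near 4 normalized counts could not be detected, and a gene that did not pass is not shown to be equal.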

Other observations

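A list of 102 genes of ribosome biogenesis and RNA polymerase I, put together after the values were seen, held 17 genes lower at ZT21 among 100 tested and 0 higher, where 1.13% of all genes were lower. Of the 100, 95 had a negative log2 fold change, with a median of -0.19. Because the list was chosen on these values it is given as a description. Polr1b, a subunit of RNA polymerase I, had 399, 371, 393, 374 and 353 at ZT9 and 325, 284, 281 and 235 at ZT21 normalized counts (log2 fold change -0.44, SE 0.086, adjusted p = 0.00127). Ddx51 had -0.44, the processome proteins Utp20 and Heatr1 had -0.40 and -0.39, and the acetyltransferase Nat10 had -0.35. In diabetic retinas, whose libraries are separate, 28 of the 100 were lower and 1 was higher at ZT21 than at ZT9, where 2.89% and 2.2% of all genes were, with a median of -0.21, and at ZT17 against ZT5 in controls the median was -0.17. The cytosolic ribosomal protein genes, which are a separate set, had a median of 0.05 in controls. The control count was 11 without replicate 3 at ZT21, 11 with no filter, 0 with the 9 libraries alone, and 27 with library totals or with the GC trend removed.

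Some called genes lay close to another called gene. Of the 432 called genes with a position, 31 neighbouring pairs had at most 30000 bases between them. Of these pairs, 26 shared their direction. Leaving out 7 overlapping pairs, which can share reads, 19 of 24 did. The pairs that went opposite ways include Miat and Crybb1, a crystallin whose call rests on the library with lens RNA. Drd4 and Irf7, both higher at ZT21, lay 25524 bases apart on chromosome 7. Arr3 and Kif4, both lower, lay 7243 bases apart on chromosome X, and Sag and Atg16l1, both lower, 11251 bases apart on chromosome 1. Tpi1 and Gnb3 were both higher and 19943 bases apart on chromosome 6. Egln1 and Sprtn, 2425 bases apart on chromosome 8, went opposite ways, with 0.53 and -0.35. How often pairs at such distances share a direction among genes that were not called was not measured.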
